A study of Homo sapiens with 12 samples.

Results

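The mRNAs of 10 glycolysis enzymes were followed through maps of N1-methyladenosine (m1A), a methyl mark on the base-pairing face of adenine in RNA. The enzymes, in pathway order, are HK2, GPI, PFKP, ALDOA, TPI1, GAPDH, PGK1, PGAM1, ENO1 and LDHA. They were chosen by gene name, and all 10 had a peak in at least 1 list, among 10226 genes with a peak in any list. The cells were SNU-668, a human gastric cancer line, and all of them were erastin-resistant, erastin being a drug that blocks cystine import and causes ferroptotic cell death. All sample titles also begin with RLS3, whose meaning is not given there, and it was not interpreted. The knockdown group received shRNA-ALKBH3, directed against a demethylase that removes m1A from RNA, and the control group, with genotype given as WT, received shRNA-NC. Each group had 3 immunoprecipitated (IP) and 3 input libraries, and each of the 6 IP libraries has its own list of peaks. Whether a group was 1 clone or a pool, and whether replicates were separate cultures, is not given in the labels. The p-values below therefore reflect only how far these lists scatter, which may be technical. Means are given ± SD over the 3 lists of a group, and tests between groups are exact permutation tests, two-sided.

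Glycolysis turns glucose into pyruvate in the cytosol and yields ATP and NADH. HK2, GPI and PFKP prime and rearrange the sugar, and ALDOA and TPI1 split it into triose phosphates. GAPDH, PGK1, PGAM1 and ENO1 turn these into phosphoenolpyruvate, and the step from there to pyruvate belongs to none of the enzymes followed here. LDHA then reduces pyruvate to lactate and regenerates NAD+, a route that many tumours run at a high rate even with oxygen present. Most of these mRNAs are abundant in proliferating cells. Several of these genes also have processed pseudogene copies in the genome, and how reads that fit more than 1 copy were treated is not given in the sources used here.

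A peak marks a stretch where IP reads exceeded input reads, and its log2 enrichment is the authors' own value for that peak. Read counts are not part of the lists, and the depth behind each value is unknown. A missing peak may reflect an absent mark, a scarce transcript or too few reads, and these cannot be told apart. The lists held 34691, 13056 and 8474 distinct peaks for ALKBH3 knockdown replicates 1, 2 and 3, and 5015, 4894 and 15130 for control replicates 1, 2 and 3. ALKBH3 knockdown replicate 1 stood apart by its length, and each group difference below is given with and without it where this turns the direction. Whether ALKBH3 itself fell could not be checked, because the lists hold no transcript levels. Of 7 epithelial markers 5 had a peak, among them KRT8 and KRT18 in all 6 lists, while CDH1 and CLDN4 had none. Of 10 markers of immune, endothelial and fibroblast cells, COL1A1 alone had a peak, in 5 lists.

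Across the 6 lists the enzymes had 147 distinct peaks, and the number of enzymes with a peak was 10, 7 and 5 in ALKBH3 knockdown replicates 1 to 3 and 8, 6 and 10 in control replicates 1 to 3. The groups overlapped, with means of 7.33 ± 2.52 for knockdown and 8 ± 2 for control. For comparison, 82.4%, 58.7% and 43.8% of all 10226 genes had a peak after knockdown and 27.4%, 28.7% and 58.9% in control cells. The share of enzymes was above the share of all genes in each of the 6 lists. No test was applied to this count, since the enzymes were chosen with earlier results of these data known.

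ALDOA, GAPDH and ENO1 had a peak in every list. These 3 of 10 enzymes compare with 7.55% of all genes, 772 of 10226. GPI, TPI1 and PGK1 had a peak in 5 lists, PGAM1 and LDHA in 4, PFKP in 3 and HK2 in 2. PGAM1, which shifts the phosphate of phosphoglycerate, was the only enzyme with a peak in at least 2 more control than knockdown lists (3 against 1), against 1.76% of all genes. No enzyme had a peak in at least 2 more knockdown lists, against 20.1% of all genes. With any 1 control list left out, no enzyme had a peak in at least 2 more control lists. That outcome was fixed by the 3 against 1 of PGAM1 and tests nothing. Leaving out a knockdown list can only raise this number or leave it as it is, since the groups are then unequal. With ALKBH3 knockdown replicate 1 left out the number was 3, and without ALKBH3 knockdown replicate 2 or 3 it was 2. In the other direction it became 1 without control replicate 1 and 2 without control replicate 3.

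**Figure D1:**
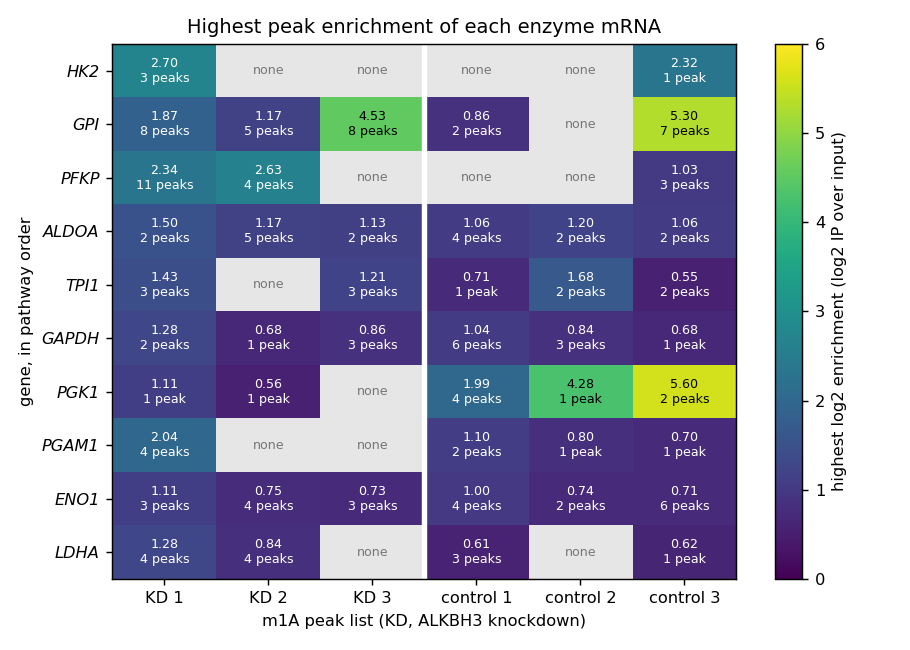
Highest log2 enrichment (log2 IP over input, colour) of any peak of each enzyme mRNA (rows, in pathway order) in each of the 6 peak lists (columns), with the number of distinct peaks printed below it and grey where the list has no peak. ALDOA, GAPDH and ENO1 fill all 6 columns with values between 0.68 and 1.50, whereas GPI and PGK1 hold the highest values, 5.30 and 5.60, both in control replicate 3.

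Most enzyme peaks were weakly enriched. The median log2 enrichment of the enzyme peaks was 1.28, 0.72 and 0.78 in ALKBH3 knockdown replicates 1 to 3 and 0.65, 0.74 and 0.76 in control replicates 1 to 3. The medians over all peaks were 2.00, 2.29 and 2.11 after knockdown and 1.58, 2.25 and 2.07 in control cells, so the enzymes lay below the median of their own list in 6 of 6 lists. Among the enzymes with a peak, the median rank of the highest log2 enrichment lay between percentiles 1.35 and 8.70 of all genes with a peak in the same list. A log2 enrichment of at least 2, which is 4-fold, was reached by 18 of the 147 enzyme peaks (12.2%) and by 52.5% of all peaks. The weak enrichment did not go with a weak false discovery rate. The -log10 of the median deposited rate was higher for the enzymes than for all peaks in 5 of 6 lists, for example 15.6 against 10.5 in ALKBH3 knockdown replicate 1, with 9.21 against 9.54 in ALKBH3 knockdown replicate 3 as the exception.

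**Figure D2:**
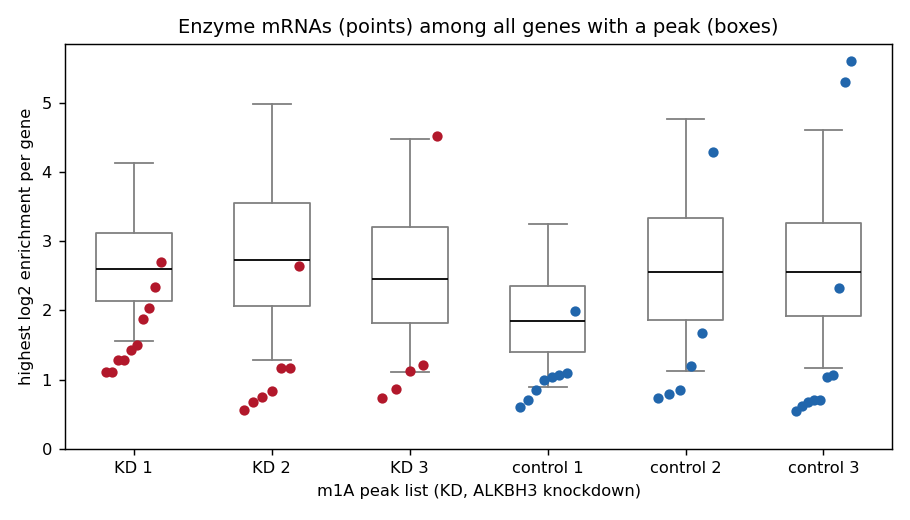
Highest log2 enrichment per gene in each peak list. Points are the enzymes with a peak (red, ALKBH3 knockdown; blue, control), boxes show the interquartile range and median of all genes with a peak, and whiskers run from percentile 5 to 95. Most points sit at or below the lower whisker, and the points above the upper whisker are GPI in ALKBH3 knockdown replicate 3 and GPI and PGK1 in control replicate 3.

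Summed over its peaks, the median marked enzyme was covered over more genomic bases than the median marked gene. These counts are not lengths of mRNA. In ALKBH3 knockdown replicate 1 they were 4625 for LDHA and 6118 for GPI. The longest listed transcripts of these genes had 2416 and 4000 nt, so the covered bases cannot all lie in a single listed transcript. Among enzymes with a peak, the median number of covered bases per gene was 2537.5, 600 and 400 in ALKBH3 knockdown replicates 1 to 3 and 487.5, 275 and 275 in control replicates 1 to 3. The medians over all genes with a peak were 475, 175 and 125 after knockdown and 125, 125 and 175 in control cells, lower in 6 of 6 lists. Single peaks were not longer throughout. The median enzyme peak was longer than the median of all peaks in 4 of 6 lists, but measured 70.5 against 75 bases in ALKBH3 knockdown replicate 2 and 50 against 75 in ALKBH3 knockdown replicate 3. The shortest width, 25 bases, made up 23.1% of enzyme peaks and 27.96% of all peaks. Of 13 enzyme peaks longer than 1000 bases, 10 were in ALKBH3 knockdown replicate 1.

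Among the first 3 enzymes, HK2, the hexokinase that traps glucose as glucose 6-phosphate, had the fewest peaks. In ALKBH3 knockdown replicate 1 it had 3, with a log2 enrichment of 2.70 in the 5′ UTR (chromosome 2, 75061683 to 75061707, plus strand, hg19 as for all positions here), 1.85 in coding sequence and 2.30 in the 3′ UTR. Control replicate 3 had 1 peak in the 3′ UTR (75120323 to 75120397), with a log2 enrichment of 2.32, and no base of HK2 was covered in more than 1 list. All of its 4 peaks were more enriched than the median enzyme peak of any list.

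PFKP, the platelet-type phosphofructokinase that catalyses the committed step, had 11 peaks in ALKBH3 knockdown replicate 1, 4 in ALKBH3 knockdown replicate 2 and 3 in control replicate 3, and none elsewhere. Its highest log2 enrichments were 2.34, 2.63 and 1.03 in those lists, in the 5′ UTR, the 3′ UTR and coding sequence in turn. The 3 lists met on 25 bases of coding sequence (chromosome 10, 3146071 to 3146095, plus strand), where the peaks had log2 enrichments between 1.03 and 1.60. The number of peaks per list averaged 5 ± 5.57 after knockdown and 1 ± 1.73 in control cells (exact permutation p = 0.4), and the groups overlapped at 0. Without ALKBH3 knockdown replicate 1 the difference was 1 peak instead of 4.

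GPI, which interconverts glucose 6-phosphate and fructose 6-phosphate, had the most peaks of the enzymes, 30 over 5 lists. It had 8, 5 and 8 peaks in ALKBH3 knockdown replicates 1 to 3 and 2, 0 and 7 in control replicates 1 to 3, with overlapping groups (7 ± 1.73 against 3 ± 3.61, exact permutation p = 0.2). The peaks fell into 2 kinds. On the parts of GPI shared by several listed transcripts, 21 peaks had log2 enrichments between 0.69 and 1.87. Farther downstream, 9 peaks lay in the 3′ UTR of a single listed transcript of 4000 nt, 5 in ALKBH3 knockdown replicate 3 with log2 enrichments of 2.60 to 4.53 and 4 in control replicate 3 with 2.34 to 5.30. The downstream peaks ran from 34892138 to 34892637 on chromosome 19 (plus strand) in the former list and from 34891663 to 34895554 in the latter. The strongest of them (34892688 to 34895554) also carried the gene names PDCD2L and RP11-618P17.4, so its reads cannot be assigned to GPI alone. The same holds for 2 coding peaks that also carried the name RP11-618P17.4, at 34887206 to 34887555 in ALKBH3 knockdown replicate 1 (1.46) and at 34887231 to 34887530 in control replicate 3 (0.72).

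Of the aldolase step and the enzyme after it, ALDOA, which cleaves fructose 1,6-bisphosphate, had 2, 5 and 2 peaks in ALKBH3 knockdown replicates 1 to 3 and 4, 2 and 2 in control replicates 1 to 3. Its highest log2 enrichments were 1.50, 1.17 and 1.13 after knockdown and 1.06, 1.20 and 1.06 in control cells, which overlapped. In all 6 lists the most enriched peak of ALDOA ran from coding sequence into the 3′ UTR, and in ALKBH3 knockdown replicate 1 it reached back into the 5′ UTR as well. The 6 lists shared 350 consecutive bases there (chromosome 16, 30081323 to 30081672, plus strand), and 400 bases of ALDOA in all.

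TPI1, triosephosphate isomerase, had 3, 0 and 3 peaks after knockdown and 1, 2 and 2 in control cells. Its highest log2 enrichments were 1.43 and 1.21 in ALKBH3 knockdown replicates 1 and 3 and 0.71, 1.68 and 0.55 in control replicates 1 to 3. The 5 lists with a peak met on 50 bases of the 3′ UTR (chromosome 12, 6979838 to 6979887, plus strand). ALKBH3 knockdown replicate 2 lacked any TPI1 peak among its 13056, whereas control replicates 1 and 2, with 5015 and 4894 peaks in all, both had them.

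GAPDH, the dehydrogenase that makes the first NADH of the pathway, was the enzyme with the largest share of its covered bases in common between lists. Peaks covered 1843, 1175 and 1100 bases of it in ALKBH3 knockdown replicates 1 to 3 and 1293, 975 and 1300 in control replicates 1 to 3. All 6 lists shared 900 bases, among them a run of 500 (chromosome 12, 6646375 to 6646874, plus strand), which lay in coding peaks in 3 lists and in peaks running on to the 3′ UTR in the other 3. They also shared the last 262 covered bases (6647267 to 6647528), where every peak included coding sequence and 3′ UTR. The highest log2 enrichments, 1.28, 0.68 and 0.86 after knockdown and 1.04, 0.84 and 0.68 in control cells, overlapped. A peak confined to the 5′ UTR was listed in ALKBH3 knockdown replicate 1 (0.81) and control replicate 1 (0.49), at the same position in both (6644468 to 6644635).

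ENO1, the enolase that forms phosphoenolpyruvate, lies on the minus strand of chromosome 1. It had 3, 4 and 3 peaks after knockdown and 4, 2 and 6 in control cells. The highest log2 enrichments were 1.11, 0.75 and 0.73 in ALKBH3 knockdown replicates 1 to 3 and 1.00, 0.74 and 0.71 in control replicates 1 to 3, so the groups interleaved. All 6 lists shared 175 bases in peaks that reached the 3′ UTR (8921286 to 8921460), and another 25 bases nearby (8921161 to 8921185). In control replicate 1 the most enriched peak lay in the 5′ UTR instead (8938652 to 8938701).

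ALDOA, GAPDH and ENO1 were thus the 3 of 10 enzymes with a base covered in every list, against 2.35% of all genes (240 of 10226). In each of the 3 the shared bases included a stretch where all peaks reached the 3′ UTR. Between the groups, none of the 3 had a higher best enrichment in every knockdown list (5.44% of the 772 genes with a peak in all lists) or in every control list (2.72%).

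**Figure D3:**
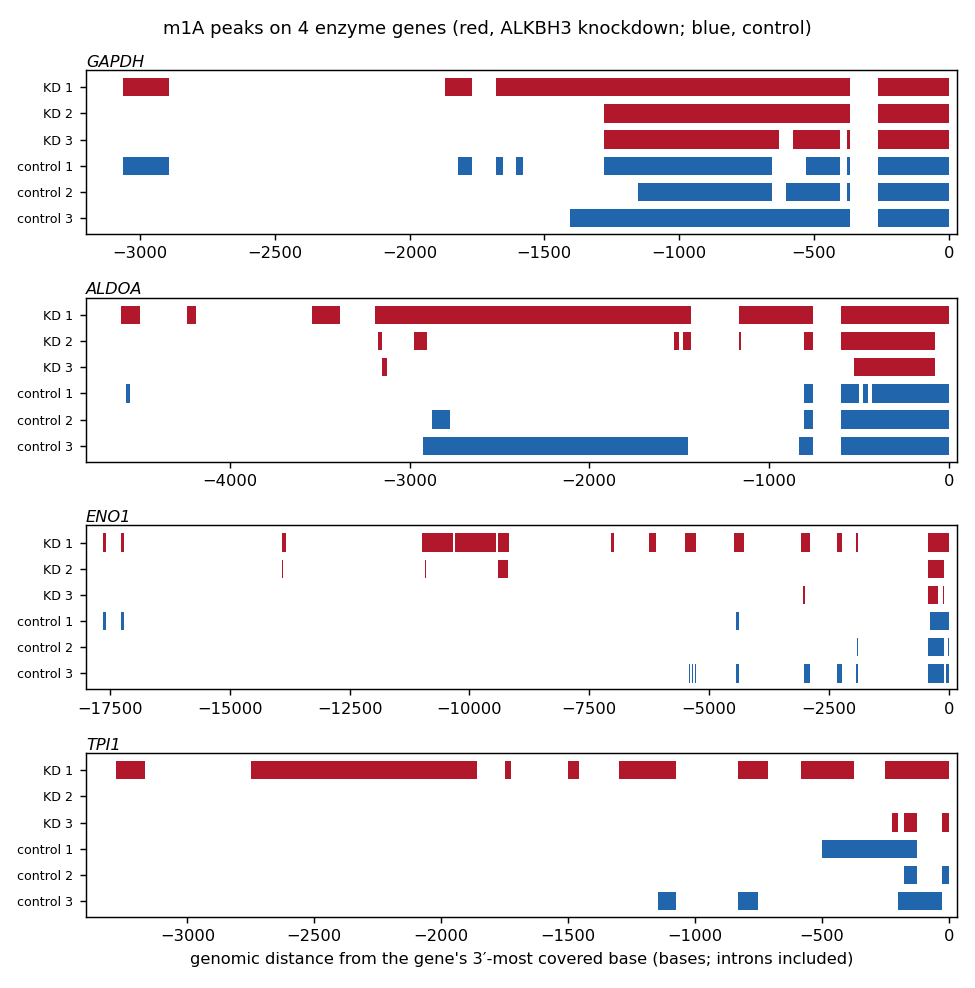
Bases covered by m1A peaks on GAPDH, ALDOA, ENO1 and TPI1, with 1 row per peak list (red, ALKBH3 knockdown; blue, control) and the genomic distance in bases from the 3′-most covered base of the gene on the horizontal axis, introns included. All 6 rows are covered up to the right-hand end on GAPDH, to within 75 bases of it on ALDOA and to within 100 on ENO1, ALKBH3 knockdown replicate 1 covers the most of each gene, and TPI1 is empty in ALKBH3 knockdown replicate 2.

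PGK1, the first ATP-forming enzyme of the pathway, had its strongest peaks in control lists, on a distal stretch of the 3′ UTR. In ALKBH3 knockdown replicate 1 a single peak ran over 2000 bases from the 5′ UTR to the 3′ UTR with a log2 enrichment of 1.11, ALKBH3 knockdown replicate 2 had 1 coding peak at 0.56, and ALKBH3 knockdown replicate 3 had none. The control lists had 4, 1 and 2 peaks. Of these, 5 lay in the 3′ UTR of a single listed transcript of 4887 nt, with log2 enrichments of 1.10 and 1.99 in control replicate 1, 4.28 in control replicate 2, and 3.87 and 5.60 in control replicate 3. No knockdown list had a peak on that stretch. The 5 control peaks had deposited false discovery rates of 1.21e-09 to 4.27e-09. Their p-values from the authors' peak calling were 1.45e-11 to 4.35e-11, and the largest in any list was 9.996e-11. A knockdown peak with a p-value just above that largest value would not be listed. Upstream of that stretch the groups shared 100 bases (chromosome X, 77381295 to 77381394), covered in ALKBH3 knockdown replicate 1 and control replicate 1. Control replicates 2 and 3 met on 100 bases near its end (chromosome X, 77384620 to 77384719, plus strand), and the peaks of control replicate 1 ended upstream of them.

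This contrast on PGK1 was picked after the values were seen, and no test was applied to it. The number of PGK1 peaks per list averaged 0.667 ± 0.577 after knockdown and 2.33 ± 1.53 in control cells (exact permutation p = 0.3), overlapping at 1. Whether the long transcript was present at the same level in both groups was not tested.

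**Figure D4:**
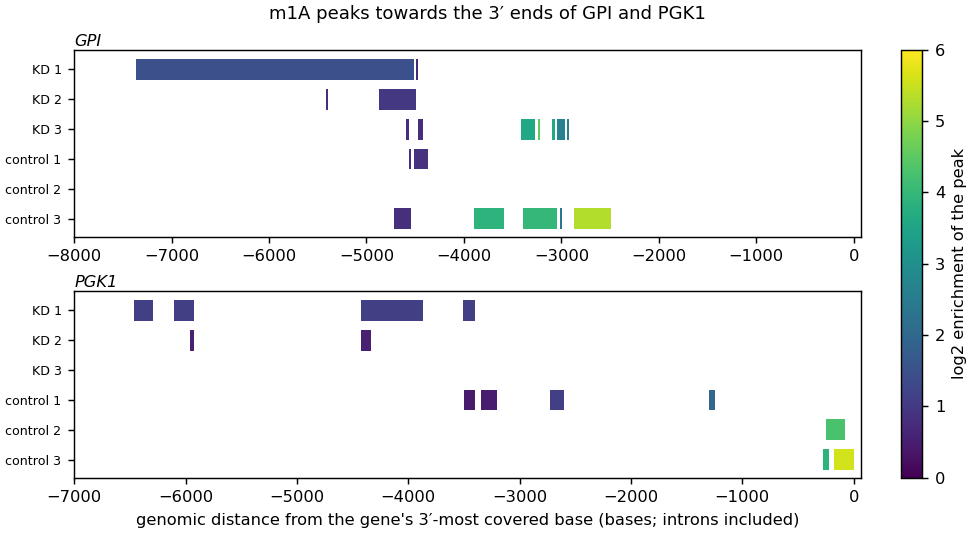
m1A peaks towards the 3′ ends of GPI and PGK1, 1 row per peak list, with genomic distance in bases from the 3′-most covered base on the horizontal axis and the log2 enrichment of each peak as colour. The light, strongly enriched peaks of GPI are in ALKBH3 knockdown replicate 3 and control replicate 3, those of PGK1 in control replicates 2 and 3, and the dark peaks upstream are below 2; the zero point of GPI is a block of 1 base in a later exon.

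PGAM1 had 4 peaks in ALKBH3 knockdown replicate 1, with log2 enrichments of 1.18 to 2.04, and none in the other knockdown lists. The control lists had 2, 1 and 1, all in the 3′ UTR, with highest log2 enrichments of 1.10, 0.80 and 0.70. The control peaks covered 325, 25 and 75 bases, against 1875 in ALKBH3 knockdown replicate 1. No base of PGAM1 was covered in more than 2 lists.

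LDHA had 4, 4 and 0 peaks after knockdown and 3, 0 and 1 in control cells. Its highest log2 enrichments were 1.28 and 0.84 in ALKBH3 knockdown replicates 1 and 2 and 0.61 and 0.62 in control replicates 1 and 3. All 4 lists with a peak shared the last 25 covered bases, in the 3′ UTR (chromosome 11, 18429391 to 18429415, plus strand). ALKBH3 knockdown replicates 1 and 2 and control replicate 1 also had a peak that included both 5′ UTR and coding sequence.

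By region, 71 of the 147 enzyme peaks (48.3%) reached the 3′ UTR, against 45.3% of all peaks, but the lists went both ways. The enzyme share was 34.1%, 29.2% and 73.7% in ALKBH3 knockdown replicates 1 to 3, against 31.9%, 47.1% and 52.6% of all peaks of the same list. In control replicates 1 to 3 it was 50%, 72.7% and 57.7%, against 68.1%, 71.2% and 54.4%. A larger share reached the 5′ UTR, 29 of 147 (19.7%) against 10.2% of all peaks. These 29 came from ALKBH3 knockdown replicate 1 with 18, ALKBH3 knockdown replicate 2 with 4 and control replicate 1 with 7, and the other 3 lists had 0 among 19, 11 and 26 enzyme peaks. Peaks confined to coding sequence made up 34.0% of the enzyme peaks and 45.4% of all peaks. That share was lower for the enzymes in 3 lists and higher in the other 3, with the widest gap in ALKBH3 knockdown replicate 1 (29.3% against 55.7%), and over the control lists it was 31.7% against 32.9%. HK2, ALDOA, GAPDH, PFKP, LDHA and ENO1 each had at least 1 peak confined to the 5′ UTR.

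In numbers, the enzymes had 41, 24 and 19 distinct peaks in ALKBH3 knockdown replicates 1 to 3 and 26, 11 and 26 in control replicates 1 to 3. The means were 28 ± 11.5 and 21 ± 8.66, 1.36-fold in geometric mean, while all peaks differed 2.18-fold. Enzyme peaks therefore made up 0.118%, 0.184% and 0.224% of all peaks after knockdown and 0.518%, 0.225% and 0.172% in control cells, which overlapped. Peaks of the enzymes covered 29003, 3841 and 2350 bases after knockdown and 4618, 2375 and 7349 in control cells. ALKBH3 knockdown replicate 1 covered 3.95 times as many bases as the next list and had the most covered bases for each of the 10 enzymes. The log2 difference in covered bases was 0.57 in favour of knockdown and -0.52 without that list, so its direction rests on 1 library.

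**Figure D5:**
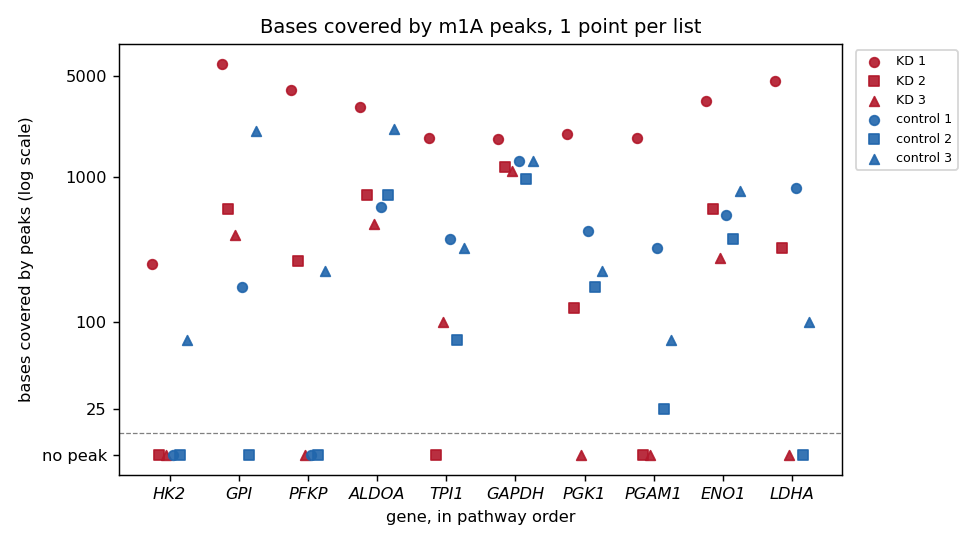
Genomic bases covered by m1A peaks of each enzyme gene (horizontal axis, pathway order) in each peak list, on a log scale, with 1 point per list (red, ALKBH3 knockdown; blue, control) and lists without a peak below the dashed line. ALKBH3 knockdown replicate 1 is the highest point of every gene, and the 6 points of GAPDH lie closest together, between 975 and 1843.

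Gene by gene, no enzyme had more distinct peaks in every knockdown list (4.81% of all genes did) or in every control list (0.108%). For covered bases the count was also 0 in both directions, against 6.2% and 0.0978% of all genes. Over all 10226 genes the exact permutation test on distinct peaks gave no adjusted p below 0.05 (Benjamini-Hochberg), and 0 genes had an unadjusted p under 0.05, because 3 lists against 3 cannot go below 0.1. That smallest value was reached by 503 genes (4.92%) for distinct peaks and by 644 (6.30%) for covered bases, none of them an enzyme. The lowest p among the enzymes was that of GPI for distinct peaks, given above, and 0.4 for the covered bases of PFKP (1421 ± 2234 against 75 ± 130 bases, exact permutation test). Both have an adjusted p of 1 over all genes. Without ALKBH3 knockdown replicate 1 the PFKP difference was 58 bases instead of 1346.

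The covered bases of the shorter lists lay largely inside the longest. ALKBH3 knockdown replicate 1 contained 96.7% and 85.1% of the enzyme bases of ALKBH3 knockdown replicates 2 and 3, and 72.9%, 91.6% and 80.6% of those of control replicates 1 to 3. In return those lists held between 6.90% and 20.4% of the bases of ALKBH3 knockdown replicate 1. Control replicate 2 had 95.8% of its enzyme bases inside control replicate 3, which had 31.0% of its own inside control replicate 2. ALKBH3 knockdown replicate 3 had 88.3% of its enzyme bases inside control replicate 3, and the reverse share was 28.2%. The enzymes differed among themselves in this respect. On GAPDH 85.1% and on ALDOA 74.8% of the bases covered anywhere were covered in at least 2 lists, against 37.4% on ENO1, 13.5% on PGK1, 8.94% on PFKP and 0 on HK2.

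Of 39 other genes of glucose and pyruvate metabolism, 26 had a peak and 7 had one in every list, against 7.55% of all genes. These 7 were PFKL, ENO3, PKM, PDK1, LDHB, a lactate dehydrogenase subunit, SLC2A1, a glucose transporter, and SLC16A3, a lactate exporter. Numbers with a peak were 24, 21 and 12 in ALKBH3 knockdown replicates 1 to 3 and 10, 10 and 17 in control replicates 1 to 3. In this list 5 genes had a peak in at least 2 more knockdown lists, 19.2% of those with a peak and near the 20.1% of all genes. The reverse was seen for 0, against 1.76% of all genes. PCK2, the mitochondrial enzyme that makes phosphoenolpyruvate, was marked in all 3 knockdown lists, its highest log2 enrichments being 2.02, 1.41 and 1.33, but had no peak in control cells. PFKFB3, which makes the activator of phosphofructokinase, had values of 2.20, 2.95 and 2.21 after knockdown and 2.89 in control replicate 3. PDHB, a subunit of pyruvate dehydrogenase, PDK3, a kinase that inhibits that complex, and PFKFB4 each had a peak in ALKBH3 knockdown replicates 1 and 2 and in no control list. PGM1, phosphoglucomutase, and SLC16A1, a monocarboxylate transporter, each appeared in 3 lists after knockdown and 2 of control cells, and ADPGK, an ADP-dependent glucokinase, in 2 and 1.

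Outside the pathway, the genes whose highest log2 enrichments lay nearest to the median of the enzymes over the 6 lists were RPL39, CALR and ATF4, with mean absolute differences of 0.10, 0.11 and 0.13. RPL39 encodes a ribosomal protein, CALR the endoplasmic reticulum chaperone calreticulin and ATF4 a stress transcription factor. This likeness describes 6 lists and was taken over the 772 genes with a peak in all of them.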

How the data were processed

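m1A was mapped in 6 IP libraries, each with an input that counts here only as part of the authors' peak calling. The labels' protocols describe purified mRNA cut to about 300 nt, antibody enrichment, a stranded library kit and 150 bp reads. FastQC 0.11.7, Trimmomatic 0.32, HISAT2 2.1.0 and build hg19 are named per the submitters' processing notes. Which peak caller was run is not given in the sources used here. One list per IP library, not pooled, was deposited, each with a log2 fold change, a p-value and an FDR for every peak, per the file headers. The log2 values were read as IP over input because all are above 0. They are the authors' own and served only to describe, rank or filter within a list. Depth is unknown.

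Transcript entries were collapsed to distinct peaks. Covered bases are the union of the deposited blocks, printed counting from 1, and peaks sharing at least 1 base were joined. A peak's region is the union over its listed transcripts. Groups were compared per gene by the two-sided exact permutation test over the 6 lists, with Benjamini-Hochberg adjustment over all genes (Python 3.11.15, numpy 2.4.6, pandas 2.3.3), tested on simulated data. The text names all 10 enzymes, 8 other pathway genes by difference in lists, then number of lists, then alphabet (ADPGK was tied with HK1 and PDK2) and the 3 genes nearest in enrichment. The 7 other pathway genes with a peak in every list were added after their values were seen. Members and lists were chosen with earlier results of these data known. Alternatives were a 4-fold minimum, an FDR minimum (-log10 of 5 or more) and equal list length (4894 peaks, by enrichment or by FDR). Others were merged peaks, each list left out, the replicate block and 50% reciprocal overlap. The FDR minimum could remove no peak, since the largest deposited FDR was 1.04e-08. No genome of build hg19 was used here, so no sequence is printed.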

Additional observations from a re-analysis of the deposited data

How the results depend on the processing

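The FDR minimum, merging and the replicate block changed no value and are left out of these counts. Under the other alternatives 56 group differences and counts stayed within 1 SD, or 1.5 times for counts, though 4 of them turned sign, and 22 moved further. Of single enzyme values 148 kept their sign or were 0 and 32 changed it. No single enzyme had passed a test. The difference in enzymes with a peak turned to 0.5 without ALKBH3 knockdown replicate 3, and to 0.333 without control replicate 3 or with the 4-fold minimum. The log2 difference in covered bases turned to -0.52 without ALKBH3 knockdown replicate 1. With lists limited to their 4894 most enriched peaks, the difference in enzymes with a peak (knockdown minus control) was -4.67 instead of -0.667. No enzyme or joined position was then in every list (0 and 0). In this setting 6 enzymes had a peak in at least 2 more control lists and 1 had more distinct peaks in every control list. The cut left control replicate 2 whole. It shortened ALKBH3 knockdown replicate 1 from 34691 peaks, and enzymes with a peak there fell from 10 to 0. These shifts cannot be told apart from the unequal shortening of the lists. With a log2 enrichment of at least 2 the counts in every list were 0 and 0, and 1 enzyme had a peak in at least 2 more knockdown lists. With equal length by FDR the log2 difference in distinct peaks was -0.37 instead of 0.44. The log2 differences could not be computed under the 4-fold minimum or equal length by enrichment, where a list had no enzyme peak. The causes were not tested.

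Leaving out 1 list at a time, enzymes with a peak in at least 2 more knockdown lists ranged from 0 to 2 and in at least 2 more control lists from 0 to 3. Enzymes with more distinct peaks in every knockdown list ranged from 0 to 2, in every control list from 0 to 1. Differences in distinct peaks ranged from 2.5 to 6 for GPI, 1 to 6.5 for PFKP and -2.33 to -0.833 for PGK1. They ranged from -0.333 to 1.17 for HK2, -0.667 to 1 for ALDOA, -0.167 to 1.33 for TPI1 and -1.67 to 0.333 for ENO1. For PGAM1 they ran from -1.33 to 0.667, for GAPDH from -2.5 to 0 and for LDHA from 0.667 to 2.67. Differences in covered bases ranged from -25 to 100 for HK2, -250 to 2609 for GPI, 58 to 2056 for PFKP, -562.5 to 745.8 for ALDOA, -208 to 729 for TPI1, -51.8 to 320 for GAPDH, -212 to 788 for PGK1, -142 to 796 for PGAM1, -137.5 to 1398 for ENO1 and -154 to 2158 for LDHA. In each of these genes the lowest value was that without ALKBH3 knockdown replicate 1.

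Equal length by enrichment changed the sign of the difference in distinct peaks for ALDOA (-1.67), TPI1 (-1) and LDHA (-0.667), and in covered bases for GPI (-300), ALDOA (-450), TPI1 (-150), GAPDH (-625), PGK1 (-191), PGAM1 (-117), ENO1 (-292) and LDHA (-200). Equal length by FDR did so in distinct peaks for HK2 (-0.333) and ALDOA (-1), and in covered bases for HK2 (-25) and PGK1 (-158). The 4-fold minimum did so in covered bases for GPI (-250) and PGK1 (-133).

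Same-numbered lists had correlations of their deviations over genes of -0.04, 0.08 and -0.12, and lists of other numbers ran from -0.15 to 0.15. Such small values cannot show whether the lists were prepared in pairs, which the labels do not give. In 3 balanced pairs the replicate block cannot move a mean difference (-0.667 enzymes, 0.44 in log2 peaks, 0.57 in log2 bases), and its lowest p, 0.25 by exact sign flip for the 4 more distinct peaks of GPI, is the smallest it can give. Unknown depth, fragments near 300 nt and 3 lists a group limit all comparisons.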
